A study of Rattus norvegicus with 3 samples.

Results

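The nuclear-encoded subunits of the mitochondrial respiratory chain and ATP synthase were followed across cell classes of the rat embryonic cerebral cortex. They were the genes whose symbols begin with Nduf followed by the letter a, b, c, s or v and a number, the 4 Sdh genes, Cyc1, and the symbols that begin with Uqcr, with Cox and a digit from 4 to 8, or with Atp5. The rule found 92 of the 29772 genes in the count tables, and it used no measured value. By symbol, 42 belonged to complex I, 4 to complex II, 9 to complex III, 19 to complex IV and 18 to complex V. The files give each gene an identifier made of its symbol.

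The respiratory chain sits in the inner mitochondrial membrane, where complexes I and II take electrons from NADH and succinate, complex III passes them through cytochrome c to complex IV, and complex IV reduces oxygen. Complexes I, III and IV pump protons, and complex V, the ATP synthase, uses the gradient to make ATP. Complex II is wholly nuclear-encoded and is also an enzyme of the citric acid cycle, whereas the other complexes combine nuclear-encoded proteins with a few core subunits encoded in mitochondrial DNA. In the developing cortex, radial glia are the neural stem cells, intermediate progenitors are their dividing offspring, and excitatory neurons are the postmitotic output.

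Single-cell RNA-seq libraries were made from freshly dissociated cortex of wild-type Rattus norvegicus embryos labelled embryonic day 14, 16 and 18, with 1 library for each age. Tissue was dissociated with papain, libraries were made with the 10x Genomics 3′ chemistry, version 3.1, and sequencing was on an Illumina NovaSeq instrument. The sample protocol further mentions an expansion culture, tagging of cells with oligonucleotides and a sort for human cells, none of which matches fresh rat tissue; whether any such step was used here was not tested. The number of embryos behind each library is not given in the sources used here. With 1 library for each label, differences between libraries have no test. Differences between classes have one for neuronal clusters and intermediate progenitors over radial glia: edgeR's quasi-likelihood test on summed counts, with the library as a block and Benjamini-Hochberg adjustment over all genes, added after the data were seen. Its repeats are libraries that carry different labels, not replicates of 1 condition. Each interval below covers the counting error of unique molecular identifiers (UMIs) only.

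The libraries labelled E14, E16 and E18 held 7100, 6707 and 6937 cell barcodes and 62740631, 80974234 and 73727823 UMIs. After cells with fewer than 1000 genes, cells with more than 10% mitochondrial UMIs and predicted doublets were left out, 4286, 4977 and 5431 cells remained, with a median of 11193, 12276 and 10475 UMIs each. A median cell held 336, 383 and 311 UMIs of the 92 genes, so the members were read mainly from summed counts. Between 12 and 17 barcodes were shared by each pair of libraries. Clustering, from which the 92 genes and the mitochondrial genes were left out, gave 28 clusters, named by fixed markers. The class names below stand for clusters that are like the named cell type: 399, 2141 and 1729 radial glia, 429, 407 and 970 intermediate progenitors, 572 newborn excitatory neurons labelled E14 and 1932 labelled E18, and 1543 maturing excitatory neurons labelled E14 and 417 labelled E18.

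The library labelled E16 did not lie between the other libraries in genes that follow developmental age. In radial glia, Hmga2, a chromatin protein of early neural stem cells, was at 12, 233 and 21.8 CPM in the libraries labelled E14, E16 and E18, where CPM is a gene's UMIs in every 1000000 UMIs of the cells summed. Aldoc, a glycolytic enzyme of late radial glia and astrocytes, was at 736, 14.8 and 237 CPM in the same order. The embryonic globins Hbz, Hbe1, Hbe2 and Hbg1 gave 2.57%, 67.4% and 22.0% of each library's haemoglobin UMIs. In all 3 measures the library labelled E16 stood at the early end and the library labelled E14 at the late end, so the labels are used below as names of libraries and not as an order in time.

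Nearly all neurons of the library labelled E16 fell into another cluster than those of the other libraries. In the joint clustering only 4 of its cells fell into the newborn class, and the class of all neuronal clusters held 3352, 604 and 2362 cells, of which 600 of the 604 labelled E16 came from cluster 12. Cluster 12 carried no class name, and its leading genes included Calb1, Calb2, Ebf1, Ebf2, Lhx9, Nxph4 and Nhlh2. The values of the neuronal clusters labelled E16 rest on that cluster. The name depends on the clustering: when that library was clustered on its own, 543 cells took the newborn name, 503 of them from cluster 12.

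Promoters are shown for 4 members that the results turn on: Sdhd, a succinate dehydrogenase anchor, and Ndufv3, a complex I subunit, which were the lowest and the highest in neurons over radial glia among members tested in all 3 libraries; Cox4i1, the most abundant member in radial glia among those grouped with complex IV by symbol; and Ndufa4l2, which was highest in mural cells. The sequences are RefSeq's, on build GRCr8, from 250 bases before to 50 bases after the annotated start, written 5′ to 3′ on the gene's strand. Sdhd lies at chr8:59850592-59850891 on the minus strand, Ndufv3 at chr20:9613536-9613835 on the plus strand, Cox4i1 at chr19:65630133-65630432 on the plus strand and Ndufa4l2 at chr7:65241919-65242218 on the plus strand. Capitals mark matches, on either strand, to the NRF1 half-site TGCGCA, the ETS core CCGGAAG, the YY1 core AAGATGGC and the hypoxia response core ACGTG.
Sdhd: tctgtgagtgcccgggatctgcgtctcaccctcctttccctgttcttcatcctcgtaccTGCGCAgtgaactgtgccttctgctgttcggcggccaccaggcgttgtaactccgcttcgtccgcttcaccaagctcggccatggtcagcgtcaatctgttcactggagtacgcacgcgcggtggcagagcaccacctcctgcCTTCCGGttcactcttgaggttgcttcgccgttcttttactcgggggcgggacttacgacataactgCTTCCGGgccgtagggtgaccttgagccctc
Ndufv3: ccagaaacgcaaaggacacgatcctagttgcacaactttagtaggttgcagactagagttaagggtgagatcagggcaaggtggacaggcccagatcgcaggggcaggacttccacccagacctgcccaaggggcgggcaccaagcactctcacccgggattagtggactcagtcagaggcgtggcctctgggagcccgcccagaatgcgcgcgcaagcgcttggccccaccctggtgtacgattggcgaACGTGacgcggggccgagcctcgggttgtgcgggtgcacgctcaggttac
Cox4i1: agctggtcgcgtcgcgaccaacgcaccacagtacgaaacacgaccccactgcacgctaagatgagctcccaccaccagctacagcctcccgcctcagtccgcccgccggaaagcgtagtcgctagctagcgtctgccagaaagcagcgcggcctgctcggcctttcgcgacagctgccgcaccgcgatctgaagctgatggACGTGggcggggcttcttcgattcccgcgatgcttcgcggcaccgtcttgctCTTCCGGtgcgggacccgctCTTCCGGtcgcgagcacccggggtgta
Ndufa4l2: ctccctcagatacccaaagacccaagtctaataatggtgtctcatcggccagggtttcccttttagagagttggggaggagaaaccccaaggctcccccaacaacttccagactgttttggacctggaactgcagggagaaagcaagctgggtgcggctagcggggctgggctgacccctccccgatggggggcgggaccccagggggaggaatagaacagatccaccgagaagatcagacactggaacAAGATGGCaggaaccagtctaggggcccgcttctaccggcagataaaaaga

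A promoter was found for 80 of the 92 members. ETS factors, among them the GA-binding protein, and the factors NRF1 and YY1 are known regulators of genes for the respiratory chain. The ETS core stood in 26.2% of the 80 member promoters and in 9.22% of all 27457 promoters of that length. The YY1 core stood in 20% against 3.44%, and the NRF1 half-site in 27.5% against 7.68%. At least 1 of those 3 was in 47 of the 80, or 58.8%, against 18.1% of all promoters; the letters of these motifs do not contain each other, and short overlaps at their ends were not removed. A TATA box, TATAAA, was in 12.5% against 14.3%, and the hypoxia response core in 26.2% against 19.7%. Member promoters were also richer in G and C, with a median of 56.0% against 52.3%. Sdhd held 2 ETS matches and 1 NRF1 half-site, Cox4i1 held 2 ETS matches and 1 hypoxia response core, Ndufv3 held 1 hypoxia response core, and Ndufa4l2 held 1 YY1 core. A match describes letters only, and binding was not measured.

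The 92 genes together took a nearly constant share of the transcripts of radial glia. They gave 29220 CPM in the library labelled E14 (95% exact Poisson interval from 29081 up to 29360), 29621 CPM in E16 (29564 up to 29678) and 28990 CPM in E18 (28922 up to 29058). That is 2.92%, 2.96% and 2.90% of all UMIs. Complex V and complex I contributed most, with 33.1%, 33.6% and 34.3% of the member UMIs for complex V and 32.8%, 31.1% and 30.2% for complex I. Complex IV gave 20.9%, 22.0% and 22.1%, complex III 11.0%, 11.1% and 11.2%, and complex II 2.28%, 2.23% and 2.17%. The 3 libraries therefore had almost the same make-up by complex.

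Within a complex the levels of subunits spread widely. These are 3′ tags, counted as 1 for each molecule and not divided by gene length, so levels of different genes can be set side by side, although capture can differ from gene to gene. In radial glia, as the mean of the 3 libraries, complex I ran from 1050 CPM for Ndufa4 to 22.0 CPM for Ndufs1, the large iron-sulfur subunit of the electron-transfer arm, among the 37 of 42 members at 20 CPM or more. Ndufa4 is grouped with complex I by its symbol, but its protein is now known as a subunit of complex IV. Complex II ran from 254 CPM for Sdhb, its iron-sulfur subunit, to 72.0 CPM for Sdha, its flavoprotein.

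Complex III ran from 612 CPM for Uqcrh, the hinge protein that holds cytochrome c1, to 151 CPM for Uqcrc2, a core protein. Complex IV ran from 804 CPM for Cox4i1, its regulatory subunit, to 22.4 CPM for Cox7a2l2 among 13 of 19 members. All 18 members of complex V were above 20 CPM, from 1079 CPM for Atp5mc2, a gene for the proton-carrying c ring, to 279 CPM for Atp5me, a small membrane subunit. Subunit proteins are assembled in fixed ratios, whereas these mRNA levels ranged widely within each complex.

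A few members were close to absent. Cox6a2, Cox8b and Cox8c had no UMI in any named class, and Ndufa10l1, Ndufb4l1 and Cox7b2 stayed below 5 CPM in every class. Cox6a2 and Cox8b are heart and muscle isoforms, and Cox7b2 and Cox8c are known from testis. Ndufs6 was at 3.29, 2.32 and 2.08 CPM in radial glia while its near-identical copy Ndufs6l1 was at 241, 244 and 225 CPM. Reads can be shared between such copies, so the split between Ndufs6 and Ndufs6l1 is uncertain, and the same holds for Ndufb11b beside Ndufb11 and for Cox7a2l2 beside Cox7a2l.

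**Figure D1:**
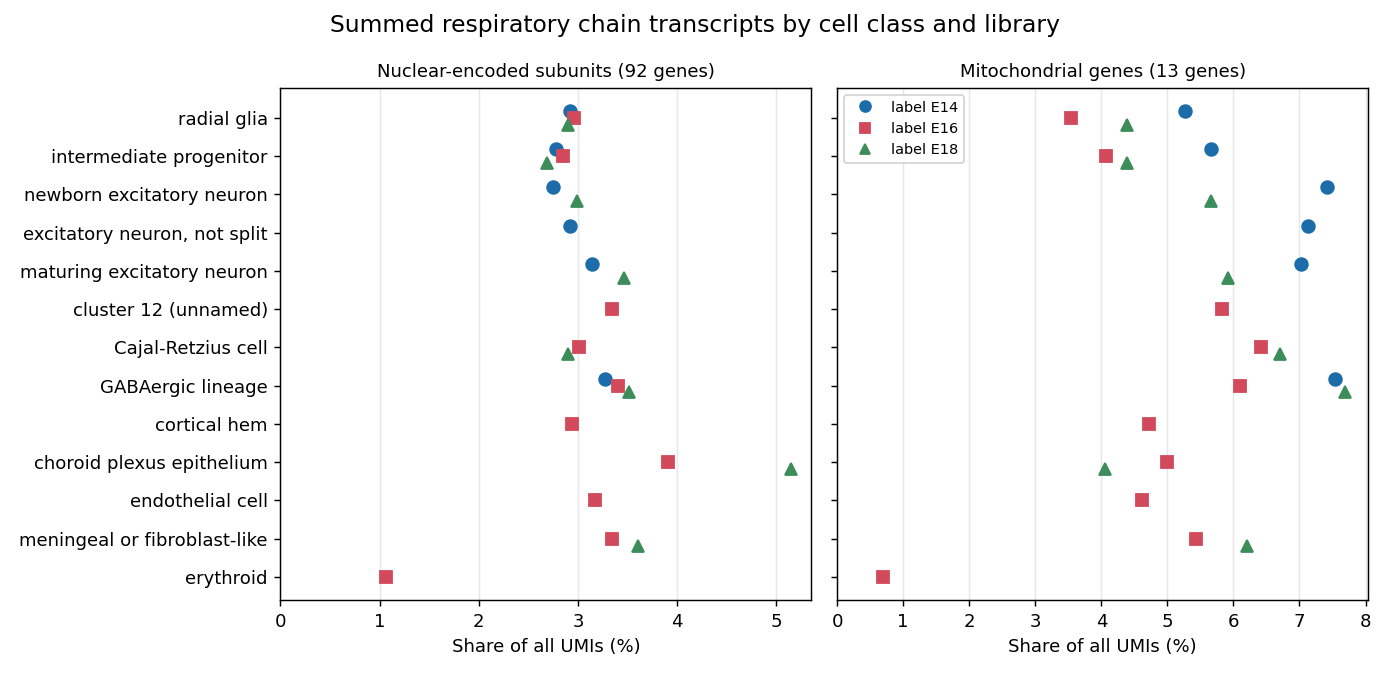
Summed UMIs of the 92 nuclear-encoded members and of the 13 mitochondrial protein-coding genes as a percentage of all UMIs, by cell class and library, for classes with at least 20 cells in that library. Members lie between 2.90% and 2.96% of UMIs in radial glia of the 3 libraries, while the mitochondrial genes range from 3.55% to 5.27% there.

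Radial glia of the 3 libraries differed little in the summed members and more in the genes of the mitochondrial genome. Against the library labelled E16, the log2 ratio of the summed members was -0.02 in the library labelled E14 (counting interval -0.03 to -0.01) and -0.03 in that labelled E18 (-0.04 to -0.03), and these comparisons share the radial glia labelled E16. The 13 mitochondrial genes gave 5.27%, 3.55% and 4.38% of UMIs, a log2 ratio of 0.57 and 0.31 over the library labelled E16. Each member UMI was thus accompanied by 1.80, 1.20 and 1.51 mitochondrial UMIs. The mitochondrial difference stood at 0.34 and 0.24 under a stricter cell filter of at least 2000 genes and at most 5% mitochondrial UMIs, which itself caps the quantity compared. Under a looser filter of at least 500 genes and at most 20% it stood at 0.60 and 0.31. A larger share of barcodes exceeded 10% mitochondrial UMIs in the library labelled E14, at 25.9% against 12.6% and 12.1%. The part of cell damage or of the filter in the mitochondrial difference was not tested.

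A gene counts as tested below where its mean over the sums compared was at least 20 CPM, and 1.5-fold is a rule of size, not of statistical significance. No tested member passed 1.5-fold between radial glia labelled E14 and E16, 0 of 81 where 20.7% of all genes tested did. None of the 81 did between E18 and E16 either, against 5.91% of all genes. Between E14 and E18 the count was 1 of 81, against 10.2%, and that member was Atp5mk. Within 1.25-fold were 69 of the 81 members (85.2%) for E14 over E16, 80 (98.8%) for E18 over E16 and 70 (86.4%) for E14 over E18, beside 55.3%, 80.7% and 67.9% of all genes tested. The members were not matched to other genes on level, which also bears on such counts.

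Over the library labelled E16, the tested members that differed most in radial glia still did so by less than 1.5-fold. Uqcrc2, a core protein of complex III, was at 181, 123 and 149 CPM in the libraries labelled E14, E16 and E18, a log2 ratio of 0.55 and 0.28 over the library labelled E16. Complex I subunits came next for E14 over E16: Ndufa8 (0.47), the flavoprotein partner Ndufv2 (0.44), Ndufa10 (0.38) and Ndufc2 (0.36). On the low side stood the complex V membrane subunits Atp5mpl (-0.47), Atp5mc3 (-0.36), Atp5mf (-0.36) and Atp5mk (-0.33), together with Uqcrh (-0.35). For E18 over E16 the highest were Atp5me (0.29), Uqcrc2 (0.28), Atp5mk (0.27), Ndufb1 (0.27) and Ndufa8 (0.25), and the lowest were Atp5mc3 (-0.37), Ndufb6 (-0.31), Ndufs1 (-0.30), Ndufb7 (-0.29) and Ndufb9 (-0.29). By complex, E14 over E16 stood at 0.06 for I, 0.01 for II, -0.04 for III, -0.10 for IV and -0.04 for V. With mitochondrial, ribosomal protein and haemoglobin genes left out of the denominator, complexes I and II turned to -0.02 and -0.07.

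Clusters of radial glia in like cell-cycle phases were also compared, but the cells came from different clusters: cluster 9 for the libraries labelled E14 and E18 against cluster 2 for E16 in S phase, and cluster 14 against cluster 8 in mitosis. In S phase the summed members stood at -0.06 for E14 and -0.09 for E18 over E16, with 0 members past 1.5-fold in either, against 26.5% and 10.4% of all genes. In mitotic clusters 0 members passed it in either comparison as well, against 23.1% and 8.05% of all genes, and the E18 ratio was 0.04. These clusters were few in cells for the library labelled E14, with 101 in S phase and 91 in mitosis.

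Among the mitochondrial genes, 12 of 13 were higher in radial glia labelled E14 than E16, and 6 of them by more than 1.5-fold. MT-ND4, a proton-pumping core subunit of complex I, stood at 1.09, MT-ATP8 of complex V at 1.08, MT-CYTB, the cytochrome b of complex III, at 1.00, MT-ND3 at 0.89, MT-ND5 at 0.79 and MT-ND2 at 0.68 on the log2 scale. The other genes differed less, with the complex IV genes MT-COX2 at 0.58, MT-COX1 at 0.47 and MT-COX3 at 0.40, MT-ATP6 of complex V at 0.47, and MT-ND1 and MT-ND4L of complex I at 0.32 and 0.06. MT-ND6, the gene on the opposite strand of the mitochondrial genome, did not share the difference, at -0.01. For E18 over E16, 12 of 13 were higher too, led by MT-ND3 (0.77) and MT-CYTB (0.51), and the exception was MT-ND4L (-0.18).

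**Figure D2:**
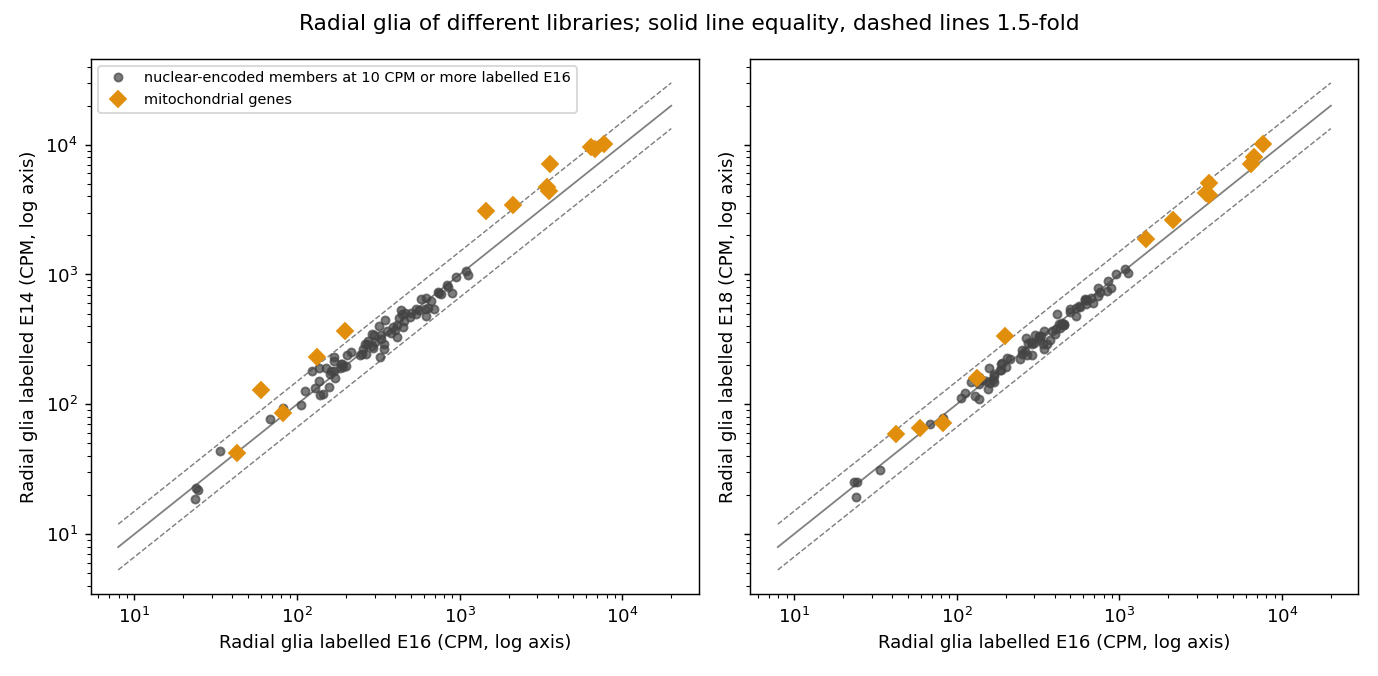
CPM of each member with at least 10 CPM and of the 13 mitochondrial genes in radial glia, the library labelled E14 (first panel) and E18 (other panel) against that labelled E16, on log axes. Members lie along the line of equal level, with log2 ratios from -0.47 to 0.55 for E14 over E16, while most mitochondrial points lie above it.

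Atp5mk, Atp5mf, Atp5mpl and Atp5me, all membrane subunits of complex V, were lower in the library labelled E14 than in that labelled E18 in every class compared. This was not common to all membrane subunits: in radial glia and intermediate progenitors Atp5mc1 stood at 0.19 and 0.32, Atp5mc3 at 0.01 and 0.18, and Atp5mc2 at -0.05 and -0.02. Nor was it particular to complex V. In the same classes Ndufa3 stood at -0.36 and -0.37, Cox7c at -0.28 and -0.26, and Cox7a2 at -0.18 and -0.34. Atp5mk, also called DAPIT, a small subunit of the membrane part that takes part in joining ATP synthase dimers, was at 329, 413 and 499 CPM in radial glia of the libraries labelled E14, E16 and E18. It was at 376 and 589 CPM in intermediate progenitors labelled E14 and E18, at 378 and 788 in newborn neurons, and at 612 and 1019 in maturing neurons. The log2 ratios of E14 over E18 were -0.60, -0.65, -1.06 and -0.74 in these 4 classes. Radial glia labelled E16 lay between the other libraries for this gene.

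Atp5mf, another membrane subunit, stood at -0.40, -0.44, -0.60 and -0.75 in the same order, Atp5mpl at -0.49, -0.31, -0.58 and -0.58, and Atp5me, chosen after its values were seen, at -0.42, -0.22, -0.51 and -0.45. Ndufb8, an accessory subunit of complex I, went the other way at 0.48, 0.53, 0.33 and 0.26. Past 1.5-fold between E14 and E18 was 1 of 81 members in intermediate progenitors (10.5% of all genes), 4 of 80 in newborn neurons (13.3%) and 3 of 80 in maturing neurons (10.8%). In newborn neurons these were Cox7a2l, higher in E14, and Atp5mf, Atp5mk and Cox7a2l2, lower; in maturing neurons Atp5mf, Atp5mk and Cox6b2 were lower.

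Members took a slightly smaller share of UMIs in intermediate progenitors than in radial glia, at 27755, 28439 and 26831 CPM, log2 ratios of -0.07, -0.06 and -0.11. The median over members was -0.05, -0.08 and -0.12, and that over all genes tested -0.08, -0.05 and -0.06. With the median gene of at least 50 CPM set to 0, the summed ratio in the library labelled E14 was -0.01. Of the 80 members tested in all 3 libraries, 44 were lower in every library (42.8% of all genes) and 15 higher (29.6%), and 0 were past 1.5-fold in all 3, where 12.5% of all genes were. Library by library, the counts past 1.5-fold were 0 of 81 (23.7% of all genes), 1 of 80 (22.3%) and 2 of 81 (20.7%). The gene in question was Atp5mc1, 1 of the 3 genes for the c ring, at 240, 227 and 191 CPM in intermediate progenitors and 356, 377 and 311 in radial glia (-0.57, -0.73 and -0.70), and it fell by edgeR's test (adjusted p = 0.00128). The other was Uqcr11, a small complex III subunit, at -0.50, -0.41 and -0.59 (adjusted p = 0.00575, and 0.0976 without the library labelled E18).

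By edgeR's quasi-likelihood test with the library as a block, 25 of 85 members differed between intermediate progenitors and radial glia at an adjusted p under 0.05, 12 higher and 13 lower, against 41.5% of all 12236 genes tested. The higher ones included Cox7a2 (adjusted p = 0.00805) and Atp5mk (0.00522), and the lower ones Sdhd (0.0197). Cox7a2, Atp5mk and Sdhd were not called without the library labelled E18 or with no library block. The test's scaling placed members a median of 0.12 above the CPM ratios on the log2 scale, so that 44 of the 80 members tested in both ways were higher by it and 36 lower. The count was 3 without the library labelled E18 (18.9% of all genes), 13 without that labelled E16 (37%) and 3 with no library block (15.4%), so the share of all genes called fell as well. Atp5mc1 and Cox4i2 passed in each of the 6 alternatives run.

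Between libraries, 3 of 80 members were past 1.5-fold in either direction in intermediate progenitors labelled E14 over E16 (23.2% of all genes). These were Ndufa8, Ndufv3 and Sdha, all higher in E14. For E18 over E16 the count in either direction was 0 of 80 (7.77%).

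Neurons and radial glia of the same library differed little in the summed members, while single subunits went in opposite directions. The neuronal clusters mixed newborn, maturing and unnamed cells in proportions that differed by library. They also held 1243 excitatory neurons that were not split into newborn or maturing. The part of that mix in the ratios was not tested. The neuronal clusters held 30343, 33399 and 31124 CPM of members, log2 ratios over radial glia of 0.05 (counting interval 0.05 to 0.06), 0.17 (0.17 to 0.18) and 0.10 (0.10 to 0.11). The median over members was 0.06, 0.17 and 0.09, and that over all genes tested -0.18, -0.09 and -0.08. The mitochondrial genes differed more between radial glia and neurons, with log2 ratios of 0.43, 0.72 and 0.39. In every library 12 of the 13 were higher in neurons, and MT-ND6 was lower, at -0.45, -0.22 and -0.19. Under the stricter cell filter, which caps the mitochondrial share itself, these ratios were 0.05, 0.33 and 0.09, and under the looser one 0.41, 0.70 and 0.37. By edgeR's test 11 of the 13 mitochondrial genes passed, where 51.5% of all genes did, and the count was 6 without the library labelled E18 (22.3% of all genes), 7 without that labelled E16 (47.6%) and 4 with no library block (44.6%).

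Fewer members than other genes passed 1.5-fold between neurons and radial glia. The counts were 7 of 80 in the library labelled E14 (48.5% of all genes tested), 11 of 82 in E16 (47.6%) and 8 of 80 in E18 (46%). Past it in all 3 libraries in the same direction were 6 of 80, or 7.5%, against 33.6% of 5570 genes. Those 6 were Ndufv3, Atp5if1, Atp5mk and Ndufb2, higher in neurons, and Sdhd and Ndufa12, lower; 14.2% of all genes were past it as higher and 19.4% as lower. By direction alone, 37 members were higher in all 3 libraries (32.8% of all genes) and 16 lower (47.7%). The members took no part in the clustering that defined the classes, whereas other genes did, which bears on every such share of all genes.

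By edgeR's quasi-likelihood test with the library as a block, 38 of 86 members differed between neuronal clusters and radial glia at an adjusted p under 0.05, 31 higher and 7 lower, against 51.5% of all 14216 genes tested. The count was 8 without the library labelled E18 (22.3% of all genes), 23 without that labelled E16 (47.6%) and 25 with no library block (44.6%), so the share of all genes called fell as well. Those called in each of the 6 alternatives run were Ndufv3, Atp5if1, Atp5mk, Ndufb2, Ndufa7 and Ndufa8, higher, and Sdhd and the scarce Cox4i2, lower. The test's scaling placed members a median of 0.12 above the CPM ratios on the log2 scale, with 62 of the 80 members tested in both ways higher and 18 lower.

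The complexes did not move alike: complex IV stood at 0.21, 0.30 and 0.19, complex I at 0.08, 0.20 and 0.13, complex V at 0.00, 0.14 and 0.09, complex III at -0.10, 0.04 and -0.04, and complex II at -0.47, -0.34 and -0.34. Complex II stayed below 0 and complexes I and IV above 0 in every alternative run, whereas complex III reached 0.06 in E14 and 0.04 in E18, and -0.01 in E16. The median gene itself stood at -0.16 in E14, against -0.09 in the other libraries, so neurons labelled E14 are read relative to a lower base.

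**Figure D3:**
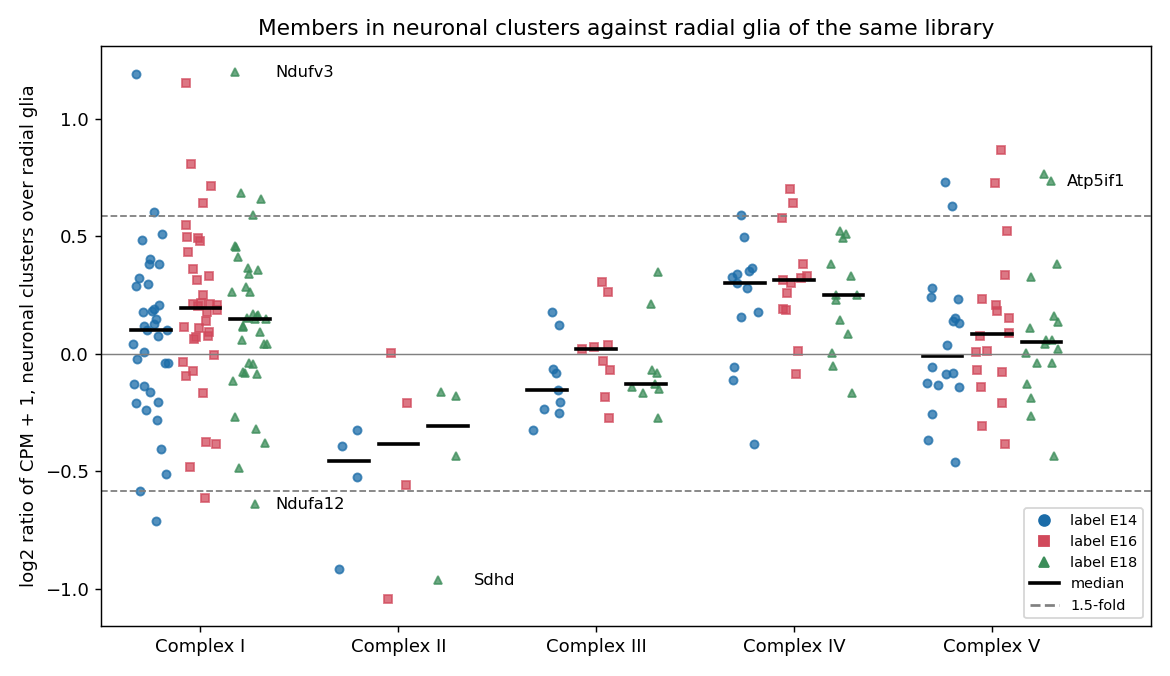
Log2 ratio of neuronal clusters over radial glia for each of the 80 members tested in all 3 libraries, by complex and library, with the median of each complex as a bar and 1.5-fold as dashed lines. Most points lie within the dashed lines, Ndufv3 lies highest in complex I at 1.15 to 1.20, and Sdhd lies lowest in complex II at -0.92 to -1.04.

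In complex I, Ndufv3, an accessory subunit of the arm that binds NADH, was at 150, 137 and 142 CPM in radial glia and at 344, 306 and 328 CPM in neuronal clusters. Its log2 ratios were 1.19 (1.10 to 1.30), 1.15 (1.08 to 1.24) and 1.20 (1.15 to 1.26), the highest among members tested in all 3 libraries. Its adjusted p was 0.00109 by edgeR's test, which 51.5% of all genes passed. Ndufb2, an accessory subunit of the membrane arm, was at 252, 214 and 224 CPM in radial glia and 382, 333 and 338 CPM in neurons (0.60, 0.64 and 0.59; adjusted p = 0.00295). Ndufa7 and Ndufa8, also accessory subunits, stood at 0.48, 0.81 and 0.68 and at 0.51, 0.71 and 0.66 (adjusted p = 0.00258 and 0.00244).

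Other complex I subunits were lower in neurons. Ndufa12, an accessory subunit of the peripheral arm, was at 348, 289 and 289 CPM in radial glia and 212, 189 and 185 CPM in neurons (-0.71, -0.61 and -0.64). The adjusted p of Ndufa12 by edgeR's test was 0.00553, or 0.0967 without the library labelled E18. Ndufa11, a membrane subunit, stood at -0.58, -0.48 and -0.49 (adjusted p = 0.0117, and 0.163 without that library). Subunits of the same complex thus stood past 1.5-fold in opposite directions.

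In complex II, Sdhd and Sdha fell from radial glia to neurons by edgeR's test, and Sdhb and Sdhc did not pass it. Sdhd, which anchors the complex in the membrane and whose promoter is shown above, was at 136, 157 and 131 CPM in radial glia and 71.4, 75.5 and 66.8 CPM in neurons. Its ratios were -0.92 (-1.04 to -0.81), -1.04 (-1.20 to -0.91) and -0.96 (-1.06 to -0.89). The adjusted p of Sdhd was 0.00335 by that test. Sdha, which oxidises succinate, stood at -0.52, -0.56 and -0.43 (adjusted p = 0.0268, and 0.209 without the library labelled E18). Sdhb stood at -0.33, -0.21 and -0.18 (adjusted p = 0.241), and Sdhc, the other anchor, at -0.39, 0.00 and -0.16 (adjusted p = 0.561).

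In complex V the regulator Atp5if1 and the small subunit Atp5mk were higher in neurons, and the alpha subunit of the catalytic head was lower. Atp5if1, the inhibitory factor that stops the enzyme from running backwards, was at 339, 297 and 299 CPM in radial glia and 524, 542 and 498 CPM in neurons (0.63, 0.87 and 0.74; adjusted p = 0.00179 by edgeR's test). Atp5mk was at 546, 683 and 848 CPM in neurons, 0.73, 0.73 and 0.77 above radial glia (adjusted p = 0.00203). Atp5f1a, the alpha subunit, stood at -0.46, -0.38 and -0.44 (adjusted p = 0.0262, and 0.278 without the library labelled E18). Atp5f1b, the catalytic beta subunit, stood at -0.25, -0.14 and -0.19 and did not pass (adjusted p = 0.41).

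In complex IV, Cox7a2, a small subunit that exists in tissue isoforms, was at 300.4, 301 and 341 CPM in radial glia and 425, 470 and 481 CPM in neurons (0.50, 0.64 and 0.49; adjusted p = 0.0035 by edgeR's test, and 0.0511 without the library labelled E18). Cox4i1 stood at 0.34, 0.19 and 0.23. In complex III, Uqcrh stood at 0.18, 0.30 and 0.21 and Uqcrc2 at 0.13, 0.26 and 0.35 (adjusted p = 0.0172 and 0.02 by edgeR's test). Neither was called without the library labelled E18, without that labelled E16, or with no library block.

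**Figure D4:**
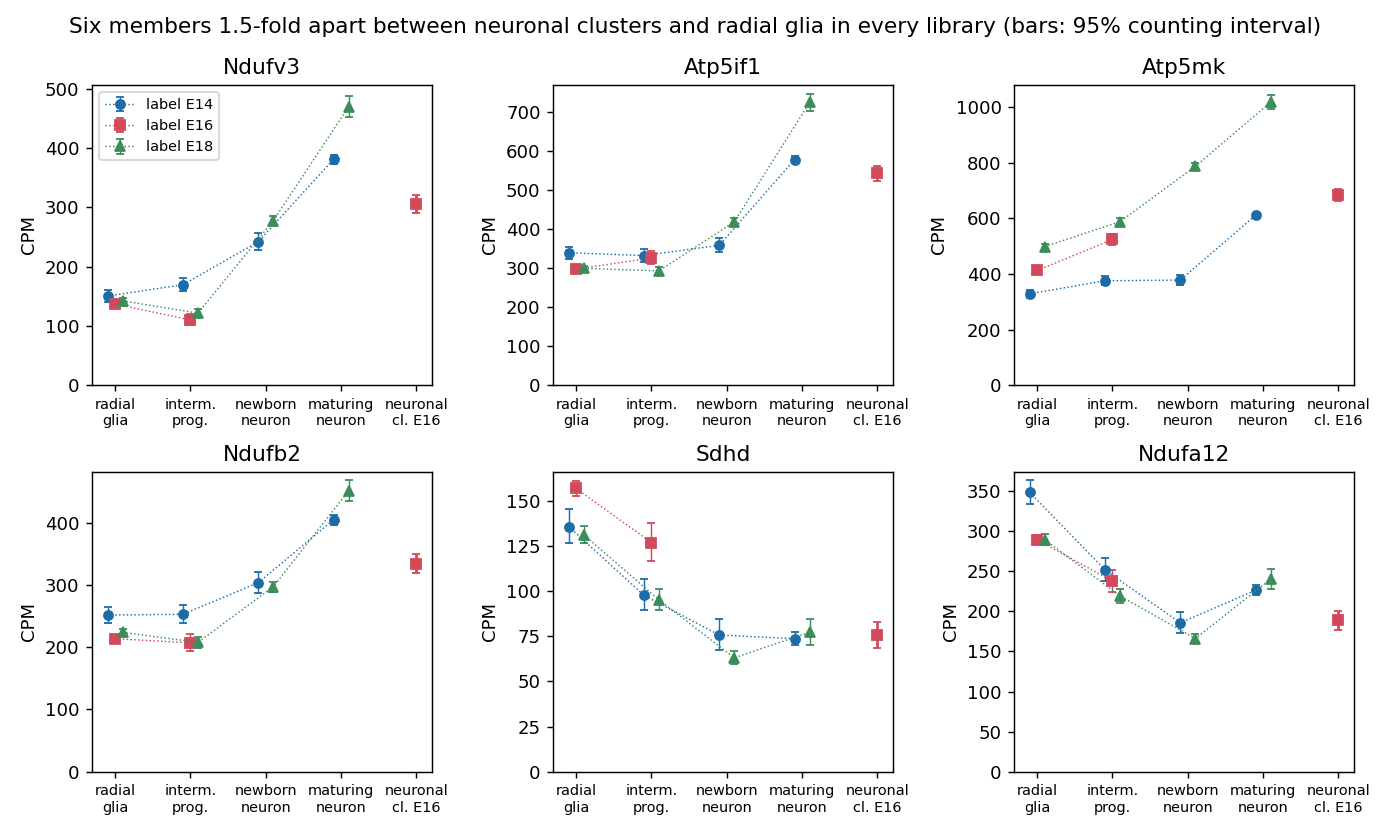
CPM of Ndufv3, Atp5if1, Atp5mk, Ndufb2, Sdhd and Ndufa12 in radial glia, intermediate progenitors, newborn and maturing neurons by library, with the neuronal clusters labelled E16, bars as 95% counting intervals and axes from 0. Ndufv3 goes from 150 and 142 CPM in radial glia to 381 and 470 in maturing neurons labelled E14 and E18, while Sdhd goes from 136 and 131 to 73.7 and 77.2.

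The newborn and maturing classes could be told apart in the libraries labelled E14 and E18. In newborn neurons the summed members stood at -0.09 (-0.10 to -0.08) for E14 and 0.04 (0.04 to 0.05) for E18 over radial glia, and in maturing neurons at 0.10 and 0.26. Both newborn values changed sign under some alternatives given in the closing section, and both are small.

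Newborn neurons had 9 of 80 members past 1.5-fold in E14 (45.7% of all genes) and 6 of 80 in E18 (44.6%). In E14 Cox6b2, Cox7a2l and Ndufv3 were higher and Ndufa11, Ndufa12, Ndufb6, Sdhd, Uqcrb and Uqcrq lower. In E18 Atp5mk, Ndufa7, Ndufa8 and Ndufv3 were higher and Ndufa12 and Sdhd lower. Ndufv3, Ndufa12 and Sdhd were thus past it in both libraries. Maturing neurons had 10 of 80 past 1.5-fold in E14 (51.5%), 5 in each direction, and 15 of 80 in E18 (54.3%), 13 of them higher.

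Members differed in which of the 2 neuronal classes carried the difference. Sdhd was already low in newborn neurons, at 75.6 and 63.1 CPM (-0.83 and -1.04), and stood at 73.7 and 77.2 CPM in maturing neurons (-0.87 and -0.76). Ndufv3 was at 242 and 278 CPM in newborn neurons (0.68 and 0.96) and 381 and 470 CPM in maturing neurons (1.34 and 1.72). Atp5if1 was close to radial glia in newborn neurons labelled E14 (0.08), was at 0.48 in E18, and reached 0.77 and 1.27 in maturing neurons. Cox6b2, the isoform of Cox6b1 best known from testis, was at 25.1 CPM in radial glia and 57.3 CPM in maturing neurons labelled E18 (1.16).

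Cox7a2l, whose protein links complexes III and IV in supercomplexes, did not follow the other members in the library labelled E14. It was at 305 CPM in radial glia, 462 in newborn neurons and 186 in maturing neurons, ratios of 0.60 and -0.71. In the library labelled E18 it was at 296, 303 and 155 CPM, ratios of 0.03 and -0.93. The lower level in maturing neurons was past 1.5-fold in both libraries and the higher level in newborn neurons in the library labelled E14, and the difference between libraries was not tested. Reads can be shared with the near-identical copy Cox7a2l2, so the levels of Cox7a2l are uncertain. In neuronal clusters labelled E14 the copies stood at -0.38 for Cox7a2l and 0.59 for Cox7a2l2 over radial glia. Atp5mc2, the most abundant member of complex V in radial glia, was at 1059 and 1094 CPM there and 771 and 862 CPM in maturing neurons.

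Related genes outside the rule were read from fixed lists in the same neuron to radial glia comparison, in which 48.5%, 47.6% and 46% of all genes tested were past 1.5-fold in either direction. Of 14 tested glycolytic genes, 8, 10 and 9 were lower past 1.5-fold in neurons and 3, 4 and 3 higher, with medians of -0.92, -1.24 and -1.16. Those higher in all libraries were Eno2, the neuronal enolase (2.82, 2.22 and 2.59), Hk1 (1.34, 1.07 and 1.23) and Pfkm. Aldoc differed in sign between libraries, at -3.47, 1.44 and -1.47. Of 10 tested regulators of mitochondrial biogenesis and mitochondrial DNA, 0 were higher and 6, 7 and 7 lower, with medians of -0.80, -0.76 and -0.77. Tfam, which packages and transcribes mitochondrial DNA, stood at -1.30, -1.58 and -1.46, and Nrf1, a transcription factor of respiratory genes, at -1.05, -1.34 and -0.94.

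The other lists were read against the same shares of all genes, 48.5%, 47.6% and 46%. Of 72 mitochondrial ribosomal protein genes, 19, 16 and 14 were lower and 2 in each library higher. Of 35, 34 and 34 assembly factors, 4, 8 and 6 were higher and 7, 4 and 3 lower. Sdhaf1, an assembly factor of complex II, was higher (1.12, 1.44 and 1.41) in the same cells in which Sdhd was lower. Cmc2, an assembly factor of complex IV, was lower (-1.85, -1.17 and -1.49). Of 15 genes of pyruvate dehydrogenase and the citric acid cycle, 0 were higher and 2 in each library lower. Of 16, 15 and 15 electron and nucleotide carriers tested, 0 were higher and 5, 3 and 4 lower; Etfa, which feeds electrons from fat oxidation to the chain, stood at -2.67, -1.88 and -2.37.

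Outside the neuronal lineage, the choroid plexus epithelium had the highest summed members, at 39026 CPM in 71 cells labelled E16 and 51478 CPM in 38 cells labelled E18. These cells make cerebrospinal fluid by active ion transport. Over radial glia of the same library the log2 ratios were 0.40 and 0.83, with 23 members higher and 1 lower of 81 in E16 (49% of all genes past 1.5-fold in either direction) and 50 higher of 81 in E18 (61.9%). Higher calls alone made up 26.4% and 27% of all genes. The mitochondrial genes stood at 0.49 and -0.11, the latter beside a median gene at -0.19.

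Cox8a, a small subunit of complex IV, was at 1103 CPM in choroid plexus against 541 in radial glia labelled E16, and at 2593 against 554 in those labelled E18 (1.03 and 2.22). Ndufa4 was at 2142 and 3081 CPM in choroid plexus (0.93 and 1.58), Uqcr11 stood at 0.96 and 1.77, and Atp5po, a subunit of the peripheral stalk, at 0.72 and 1.56. Cox5a (-0.65 and -0.33) and Atp5f1b (-0.46 and -0.25) were lower in both libraries, so the difference was not common to all subunits. GABAergic cells held 32700, 34050 and 35114 CPM of members in the 3 libraries. Erythroid cells labelled E16 held 10670 CPM, but haemoglobin was 81.7% of their UMIs, and members were 5.84% of the rest.

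The isoform genes Cox4i2 and Ndufa4l2 were highest in mural cells. Cox4i2, the isoform of Cox4i1 known from lung and oxygen-sensing cells, was at 1087 CPM in mural cells (997 to 1183; 535 UMIs in 33 cells of the 3 libraries together). By library it was at 846, 1261 and 1056 CPM in 7, 14 and 12 cells. It was at 36.9 CPM in endothelial cells, 26.6 in cortical hem, 17.4 in meningeal cells and 2.18 in radial glia. Cox4i1 was present beside it in mural cells, at 1496 CPM against 802 in radial glia. Mural cells are the pericytes and smooth muscle cells of vessels.

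Ndufa4l2, a hypoxia-responsive relative of Ndufa4, was at 606 CPM in mural cells (661, 478 and 701 by library), above Ndufa4 itself at 482. It was at 92.7 CPM in cluster 12, 59.8 in Cajal-Retzius cells, 36.0 in endothelial cells and 1.98 in radial glia. In the neuronal clusters labelled E16, nearly all from cluster 12, it stood at 93.5 CPM against 2.58 in radial glia, a log2 ratio of 4.72. Ndufa4 was at 1077 CPM in radial glia and 2589 in choroid plexus. Neither Cox4i2 nor Ndufa4l2 took part in the clustering that defined these classes.

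Atp5if1 was high in erythroid cells, at 1528 CPM (6640 UMIs) against 301 in radial glia. Atp5mc2 was at 57.1 CPM and Sdha at 5.1 CPM in the same erythroid cells, and Cox4i1 at 314 CPM. Atp5if1 was thus above Atp5mc2 there, the reverse of radial glia. That order does not hold for every c ring gene. In radial glia Atp5mc3 was below Atp5if1 in the libraries labelled E14 (266 against 339 CPM) and E18 (265 against 299). It was above Atp5if1 in that labelled E16 (342 against 297). Cox6b2 was at 107 CPM in choroid plexus and 83.5 in meningeal cells against 24.4 in radial glia.

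**Figure D5:**
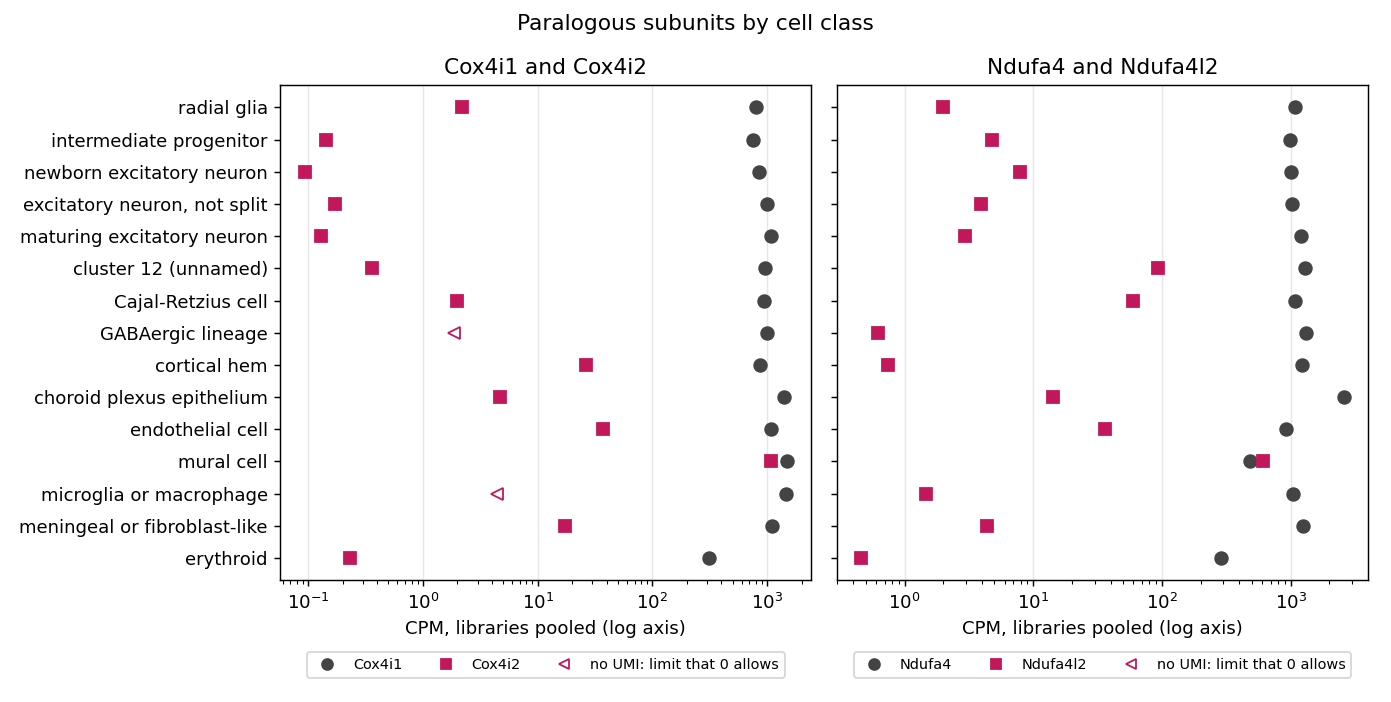
CPM of the isoform pairs Cox4i1 and Cox4i2 and Ndufa4 and Ndufa4l2 by cell class, the 3 libraries together, on a log axis, with an open triangle at the limit that a count of 0 allows. Cox4i2 reaches 1087 CPM in mural cells and 2.18 in radial glia, and Ndufa4l2 exceeds Ndufa4 only in mural cells, at 606 against 482 CPM.

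From cell to cell, the members' share of UMIs varied only loosely with the mitochondrial genes and, in most groups, more with depth. Within a class and library its coefficient of variation was between 0.119 and 0.157, above the counting part of at most 0.062. Pearson's r between the member share and the mitochondrial share over cells was between -0.06 and 0.21 in radial glia, intermediate progenitors and neuronal clusters (399 to 3352 cells), given as a description of cells that share a library, a depth and a denominator. Against the logarithm of a cell's UMIs, r was -0.35, -0.41 and -0.32 in radial glia labelled E14, E16 and E18. It was -0.25, -0.41 and -0.46 in intermediate progenitors and 0.26, -0.05 and 0.29 in neuronal clusters. Against the ribosomal protein share, r lay between -0.31 and 0.46. Over all barcodes with at least 1000 genes and at most 2.5% mitochondrial UMIs, members were 1.85% of the UMIs of nuclear genes in the library labelled E16 (353 barcodes) and 3.81% in that labelled E18 (108 barcodes). They were 3.00%, 3.12% and 3.01% in the 3 libraries where the mitochondrial share was 2.5% to 5%, 3.23%, 3.47% and 3.29% where it was 5% to 7.5%, and 3.25%, 3.50% and 3.37% where it was 7.5% to 10%. In barcodes left out above they were 3.09%, 3.02% and 3.10% at 10% to 20%, and 2.25%, 2.69% and 2.36% at 20% to 50%. Over all barcodes, which mix classes, the member share was thus higher in each successive range from 2.5% to 10% and lower above it. Median UMIs per barcode fell over those ranges. Within classes the rise held in radial glia labelled E14 and neuronal clusters labelled E16 and E18. It failed in radial glia labelled E16 (3.06%, 3.25% and 3.14%) and E18 (2.99%, 3.19% and 3.02%). It also failed in neuronal clusters labelled E14 (3.19%, 3.28% and 3.25%). At no more than 2.5% mitochondrial UMIs, radial glia alone were at 3.07% in the library labelled E16 and 3.41% in that labelled E18.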

How the data were processed

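Cell by gene UMI counts were deposited by the authors as one matrix for each of 3 libraries, made with Cell Ranger 6.0.1, per the file headers, on build mRatBN7.2, per the submitters' processing notes; the gene annotation is not given in the sources used here. Cells with at least 1000 genes and at most 10% mitochondrial UMIs were kept, and Scrublet, set to 0.8% doublets per 1000 cells, removed 158, 216 and 259 cells in the libraries labelled E14, E16 and E18. After scaling each cell to 10000 counts, 2000 variable genes without the members and the mitochondrial genes gave 30 principal components, a graph of 15 neighbours and Leiden clusters at resolution 1 (Scanpy 1.11.5, leidenalg 0.10.2, igraph 0.11.9, scikit-learn 1.9.0, numpy 2.4.6, scipy 1.17.1, pandas 2.3.3, Python 3.11.15, matplotlib 3.10.9).

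Counts were summed over the cells of a class and library and divided by all their UMIs (CPM). Mitochondrial genes stay in that denominator, so a higher mitochondrial share lowers every other CPM. Log2 ratios had 1 CPM added for single genes, genes with a mean of at least 20 CPM were tested against 1.5-fold, and intervals are exact Poisson at 95%, which cover counting error only. With 1 library for each label, labels have no test. No test was planned; after the data were seen, neuronal clusters and intermediate progenitors were tested against radial glia on the summed counts with edgeR 4.0.16 in R 4.3.3 (quasi-likelihood test, TMM scaling, its filter on low counts, library as a block, adjusted p under 0.05), with DESeq2 1.42.0 as an alternative. The other class comparisons were not tested. The ratio, interval and test steps were checked on simulated counts.

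The genes named were the 5 highest and 5 lowest members in neurons over radial glia and in radial glia of labels E14 and E18 over E16, the 2 most abundant members of each complex in radial glia, the Sdh genes and the isoform pairs; other members named were past 1.5-fold or called by edgeR in a comparison, or are near-identical or scarce copies. The newborn comparison planned for the library labelled E16 could not be given in the joint clustering (4 cells), and the rule used the neuronal clusters in its place. With each library clustered on its own, its summed members stood at 0.16 (counting interval 0.15 to 0.17), in 543 newborn neurons and 2709 radial glia. The rule that named clusters from the fixed markers, the neuronal grouping and the alternative in which every cluster takes its best class were chosen after the clusters were seen. The members and lists were chosen with earlier results of these data known. Further alternatives were another denominator, another scaling, a stricter and a looser cell filter, other clusterings, and other minimum levels, folds and added CPM.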

Additional observations from a re-analysis of the deposited data

Results flagged for a closer look

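The summed members of newborn excitatory neurons stood below radial glia in the library labelled E14, at -0.09 on the log2 scale, and above radial glia in the library labelled E18, at 0.04. The direction thus differed between the 2 libraries. That difference was not tested, since each label has 1 library, and both values changed sign under alternatives given below.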

How the results depend on the processing

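The summed members moved by small amounts on the log2 scale with most choices, and some signs turned. The sign was kept by 1608 of 1700 alternative values of named members, 46 of 53 of the median over members, 241 of 265 alternative values of the sums of single complexes, 52 of 53 of the mitochondrial sum and 24 of 24 of the sum in intermediate progenitors. Of 220 alternative values of named members past 1.5-fold, 200 were still past it. Median scaling sets the median gene of at least 50 CPM to 0, and coarser and finer clusters are Leiden resolutions 0.5 and 2. For newborn neurons over radial glia labelled E14 (-0.091), the other denominator gave -0.016, median scaling 0.030, the stricter filter 0.060, the looser filter -0.028, finer clusters -0.038, separate clustering -0.034 and best-class naming -0.025. For newborn neurons labelled E18 (0.044), the other denominator gave 0.0094, median scaling 0.12, the stricter filter -0.031, the looser filter 0.051, finer clusters 0.031, separate clustering -0.021 and best-class naming 0.038. For neuronal clusters labelled E14 (0.054), median scaling gave 0.21, the stricter filter 0.093 and coarser clusters 0.075. For neuronal clusters labelled E16 (0.17), the other denominator gave 0.13, median scaling 0.26, the looser filter 0.15, coarser clusters 0.19 and best-class naming 0.15. For neuronal clusters labelled E18 (0.10), the other denominator gave 0.052, median scaling 0.19, the stricter filter 0.053, coarser clusters 0.16, finer clusters 0.12, separate clustering 0.12 and best-class naming 0.097. For radial glia labelled E14 over E16 (-0.020), the other denominator gave -0.10, median scaling -0.070, the stricter filter 0.011, the looser filter -0.046, coarser clusters -0.0034, finer clusters -0.043, separate clustering -0.040 and best-class naming -0.038. For radial glia labelled E18 over E16 (-0.031), the other denominator gave -0.058, median scaling -0.051, the stricter filter 0.025, the looser filter -0.048, coarser clusters -0.011, finer clusters -0.054, separate clustering -0.045 and best-class naming -0.044. The stricter filter left 133 radial glia and 52 newborn neurons labelled E14; the cause of the moves was not tested. Members past a 2-fold threshold in neurons in all 3 libraries numbered 1 in place of 6 at 1.5-fold (18.6% of all genes in place of 33.6%), and with no minimum level 2 members labelled E14 (21.5% of all genes) and 1 labelled E18 (7.13%) passed 1.5-fold over E16 in radial glia in place of 0. Neurons labelled E16 in finer clusters and newborn neurons in coarser clusters gave no value, for want of cells. The number of members called by the blocked edgeR test in neuronal clusters (38) was 25 with no library block and 8 to 35 with each library left out in turn, lowest without that labelled E18. In intermediate progenitors (25) it was 3 with no library block and 3 to 25 with each library left out, again lowest without that labelled E18. DESeq2 gave 35 and 22 (50.3% and 32% of all genes), and no filter on low counts 28 and 23 (32.4% and 27.4%). With 1 library for each label, no replicate within a label could be left out. Depth limits the choroid plexus and mural classes, which held few cells.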
